A study of Mus musculus with 8 samples.

Results

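The 9 genes described here set, copy, protect or remove methyl groups on DNA: Dnmt3a, Dnmt3b and Dnmt3l for new methylation, Dnmt1, Uhrf1 and Uhrf2 for its copying, Zfp57 for its protection at imprinted regions, and Tet3 and Tdg for its removal. They were chosen by name and function and not by a cut on measured values, although earlier results of these data were known. They are 9 of 22963 genes with a RefSeq transcript in the deposited transcript table, and they own 34 of its 31786 RefSeq transcripts that matched a gene symbol. The cells were wild-type mouse embryonic stem cells of the male C57BL/6J line Bruce 4, kept for 2 weeks on dishes coated with gelatin or with laminin-511 (LN511), in a medium called Std or in 2i. The labels give no composition for Std, and 2i is a medium with inhibitors of the kinases MEK and GSK3. The 4 groups (gelatin Std, gelatin 2i, LN511 Std and LN511 2i) had 2 libraries each, described as biological replicates of this single cell line, 8 in all. All groups share the line, its sex and the culture time. What the study asks, as its labels put it, is how coating and medium each bear on expression.

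In mammals, Dnmt3a and Dnmt3b place methyl groups on unmethylated CpG sites, with Dnmt3l as a partner that has no catalytic activity of its own. After replication, Uhrf1 recognises CpG sites methylated on the old strand only and brings in Dnmt1, which methylates the new strand. Zfp57 binds a methylated motif at imprinted regions and recruits Trim28, while Tet enzymes oxidise methylcytosine and Tdg excises the oxidised base. Mouse embryonic stem cells in 2i are known for less methylated DNA than cells in serum. DNA methylation itself was not among the measurements used here.

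Expression is given in FPKM (fragments scaled to transcript length and library size), summed over the RefSeq transcripts of a gene. The files hold no counts. The steps between low values put the libraries within 1.19-fold of one another in depth. They imply 2270000 to 2720000 fragments, which may be too low. The step of 1 fragment was sought only within a fixed range of low values, which bounds the implied number whatever the true depth. Across genes, the Pearson correlation of log2(FPKM + 1) ranged from 0.919 to 0.93 within groups and from 0.865 to 0.917 across them. Markers of pluripotent stem cells, 7 genes, summed to 1544 to 1642 FPKM in Std and 1907 to 2035 in 2i on gelatin, and to 1717 to 1839 in Std and 2127 to 2334 in 2i on LN511, which fits the labelled cell type. Nanog, Sox2 and Zfp42 were called higher and Utf1 lower in 2i on both coatings, and Esrrb higher on gelatin. Fibroblast or feeder markers, 8 genes, summed to 3.54 to 5.57 FPKM in Std and 1.54 to 2.19 FPKM in 2i, with Lum and Postn at 0 everywhere, Thy1 called lower in 2i on both coatings and Pdgfrb higher on gelatin. The primitive endoderm markers, 7 genes, summed to 0.87 to 4.54 FPKM. The neuroectoderm markers, 5 genes, summed to 11.5 to 23.2 FPKM in Std and 6.02 to 9.21 FPKM in 2i, with Nes called lower in 2i on both coatings. Nes made up most of the sums in Std. Sox1, the other tested gene of that list, went the other way without being called. Its means in Std and 2i were 1.66 and 3.24 FPKM on gelatin and 2.51 and 3.05 FPKM on LN511. Sums of the 5 mesendoderm markers were higher in 2i, at 9.60 to 11.6 FPKM on gelatin and 5.23 to 5.96 on LN511, against 0.67 to 1.95 in Std. Trophoblast markers, 6 genes that share Eomes with the mesendoderm list, summed to 26.2 to 28.1 FPKM in gelatin 2i and to 7.88 to 18.2 FPKM in the other groups. The part of these markers in the medium differences below was not tested. In bulk RNA, fewer cells expressing a gene and less RNA per cell cannot be told apart.

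Start sites are shown first, because the transcripts of several of these genes begin at different places. Listed shares of these starts differed between media for Dnmt3a, and for Uhrf1 mainly between the replicates of LN511 Std. The letters are the bases just upstream of the first base in the RefSeq table for GRCm38.p6, 5′ to 3′, on the plus strand, with CpG sites in capitals and annotated untranslated bases left out. Dnmt3a has an upstream start (chr12:3806730-3806979) and an internal one 84.7 kb further along the gene (chr12:3891494-3891727). Uhrf1 has an upstream start (chr17:56303087-56303320) and a downstream one 1.03 kb away (chr17:56304063-56304312). For Dnmt3l the start of the transcripts above 0 is shown (chr10:78049592-78049841).
Dnmt3a upstream start: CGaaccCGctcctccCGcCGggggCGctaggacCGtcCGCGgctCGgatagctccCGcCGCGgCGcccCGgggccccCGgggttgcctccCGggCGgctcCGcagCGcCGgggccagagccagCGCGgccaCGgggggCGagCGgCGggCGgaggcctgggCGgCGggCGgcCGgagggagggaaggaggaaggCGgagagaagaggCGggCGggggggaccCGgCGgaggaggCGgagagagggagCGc
Dnmt3a internal start: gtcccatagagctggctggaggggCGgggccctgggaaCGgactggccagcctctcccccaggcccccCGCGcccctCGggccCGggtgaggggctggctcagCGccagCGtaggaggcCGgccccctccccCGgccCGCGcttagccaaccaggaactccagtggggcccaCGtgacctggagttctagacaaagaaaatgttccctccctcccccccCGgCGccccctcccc
Uhrf1 upstream start: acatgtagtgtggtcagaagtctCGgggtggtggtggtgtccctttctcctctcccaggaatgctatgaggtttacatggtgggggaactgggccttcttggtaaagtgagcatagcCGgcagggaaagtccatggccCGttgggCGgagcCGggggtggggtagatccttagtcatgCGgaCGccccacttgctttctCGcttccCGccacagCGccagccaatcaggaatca
Uhrf1 downstream start: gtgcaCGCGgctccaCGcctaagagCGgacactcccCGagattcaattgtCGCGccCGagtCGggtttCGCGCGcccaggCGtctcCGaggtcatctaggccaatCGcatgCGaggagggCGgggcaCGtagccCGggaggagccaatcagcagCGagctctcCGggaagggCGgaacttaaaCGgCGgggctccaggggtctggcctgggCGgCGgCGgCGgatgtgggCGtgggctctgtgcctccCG
Dnmt3l start: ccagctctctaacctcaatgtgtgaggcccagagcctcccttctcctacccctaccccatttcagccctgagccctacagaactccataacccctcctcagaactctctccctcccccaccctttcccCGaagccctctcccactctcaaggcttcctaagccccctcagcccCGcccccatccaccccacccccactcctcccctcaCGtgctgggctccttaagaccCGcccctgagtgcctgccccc

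In the full window of 300 bases around each start, the Dnmt3a upstream start holds 46 CpG sites, more than 98.4% of the 32851 windows of that length in the same table, whose median is 7. The internal Dnmt3a start holds 18 (more than 70.3% of windows). For Uhrf1 the upstream window holds 12 and the downstream window 33 CpG sites, more than 60.4% and 91.4% of windows. The Dnmt3l window holds 4, more than 31.4% of windows. So the start pairs differ in CpG content. For Dnmt3a, the start of the transcript listed above 0 in Std, described below, is the poorer one. Motifs were searched on both strands by exact letters. The E-box CACGTG occurs once each in the internal Dnmt3a window, the Dnmt3l window shown and the Tdg window, and is held by 7.15% of all windows. The GC box GGGCGG occurs 6 times at the upstream and 2 times at the internal Dnmt3a start, and is held by 35.7% of all windows. CCAAT occurs 3 times in the upstream and 2 times in the downstream Uhrf1 window, and is held by 37.4% of all windows. The E2F-type letters TTTGGCGC, held by 0.514% of windows, occur once in a Dnmt1 window (chromosome 9, 20952574 to 20952873, minus strand). That window lies at the start of NM_001199433, which was at 0 in all 8 libraries, and the windows at the starts of the Dnmt1 transcripts above 0 hold no match. These matches describe letters and no binding was measured.

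Dnmt3a, Dnmt3b and Dnmt3l fell in 2i medium on both coatings, Uhrf1 rose on both, and Dnmt1 did not pass the test in any comparison. Zfp57 was called higher on gelatin only, near the threshold and without a called interaction. The Dnmt3b call on LN511 also lay near the threshold. In limma with Benjamini-Hochberg adjustment over 10278 genes, 5 of 8 tested members were called at an adjusted p under 0.05 for 2i against Std on gelatin, 2 higher and 3 lower. Over all genes tested, 15.4% were called in that comparison (8.2% higher, 7.2% lower). On LN511, 4 of 8 members were called, 1 higher and 3 lower, against 18.5% of all genes (8.58% higher, 9.95% lower). The median log2 difference of the 8 members was -0.60 on gelatin and -0.33 on LN511, with 0.00 and -0.04 over all genes. Tdg, the remaining member, was not tested because 1 replicate was listed at 0. Each difference is one of log2(FPKM + 1), with its standard error (SE), and is understated for genes at low levels. The medium comparisons and the coating comparisons reuse the same 4 groups, so their values are not independent of one another. How often all libraries in 2i lie apart from all in Std was not counted over all genes, so no weight rests on such separation below.

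**Figure D1:**
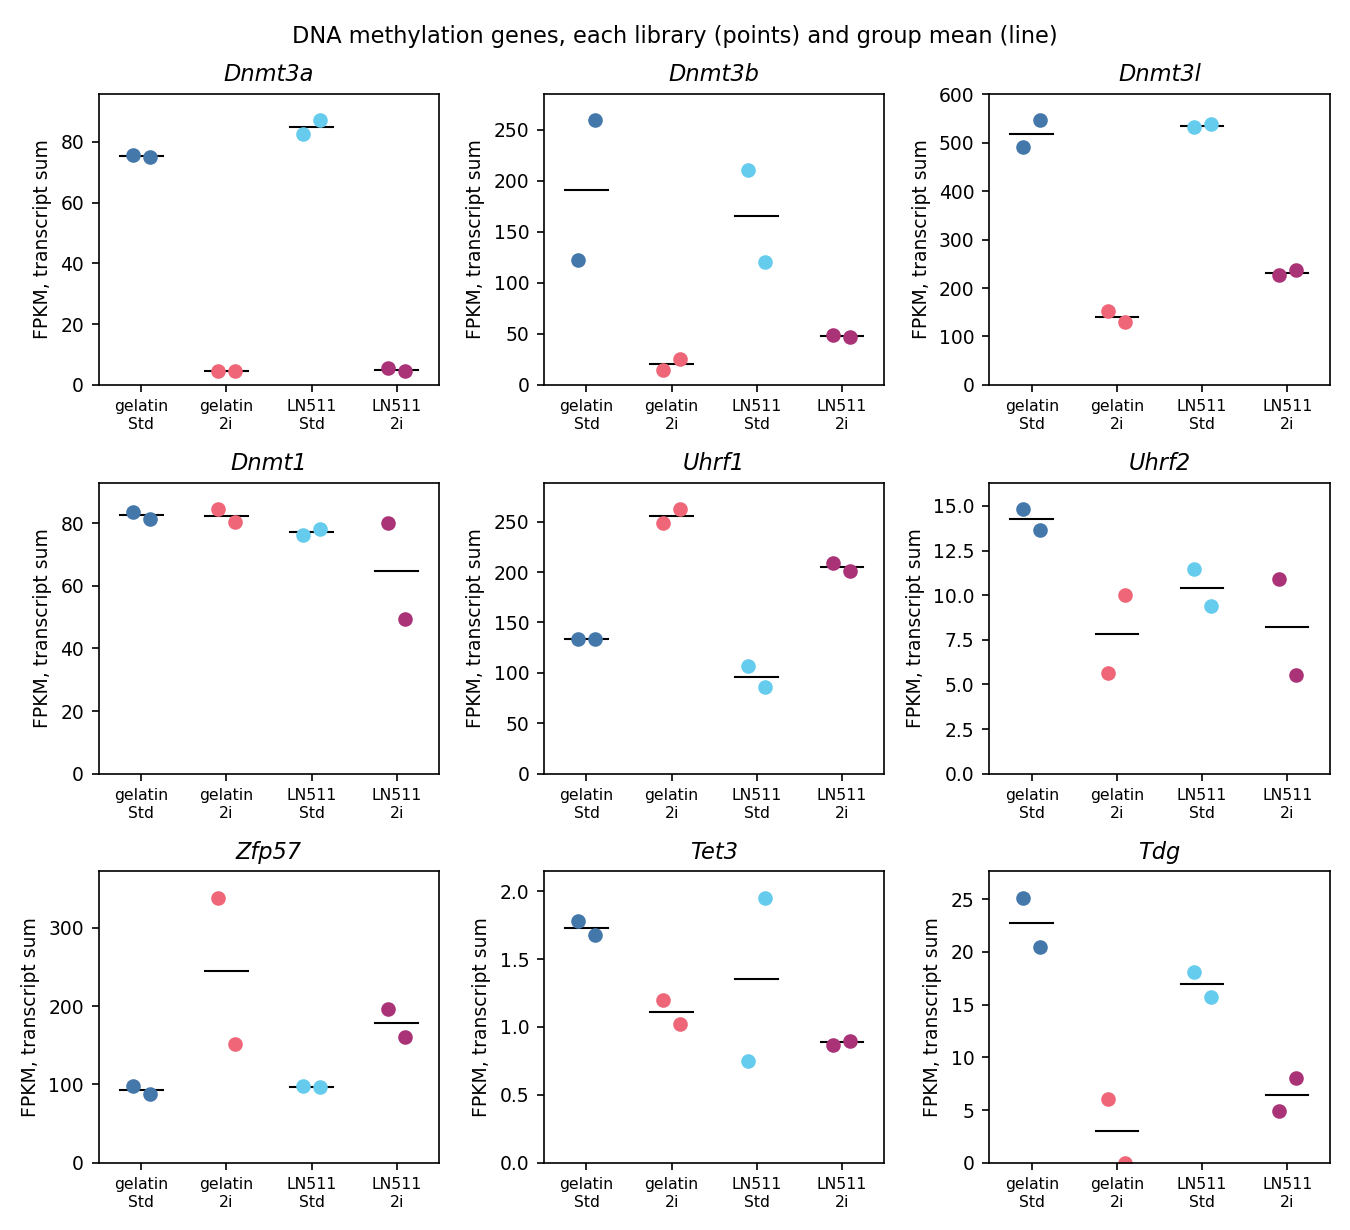
FPKM (transcript sum, linear axis from 0) of the 9 genes in each library, by coating and medium; points are the 2 libraries of a group and the line is their mean. Dnmt3a, Dnmt3b and Dnmt3l are lower in all 4 libraries in 2i than in all 4 in Std, Uhrf1 and Zfp57 are higher in all 4, and 1 of 4 libraries in 2i has Dnmt1 at 49.5 FPKM while the other libraries lie between 76.3 and 84.5. How often media lie apart in this way over all genes was not counted.

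Dnmt3a, a de novo methyltransferase (chromosome 12, plus strand, 3807030 to 3914443 for its upstream-start transcript), was at 75.6 and 75.1 FPKM in gelatin Std and at 82.5 and 87.2 FPKM in LN511 Std. In gelatin 2i it was at 4.41 and 4.68 FPKM and in LN511 2i at 5.58 and 4.42 FPKM. Every library in Std thus stood far above every library in 2i, and replicates lay close together. On gelatin the level fell from 75.4 ± 0.38 to 4.54 ± 0.19 FPKM (mean ± SD, n = 2 and 2), a log2 difference of -3.78 (SE 0.14, limma adjusted p = 5.45e-05). On LN511 it fell from 84.8 ± 3.37 to 5.0 ± 0.82 FPKM, a log2 difference of -3.85 (SE 0.14, limma adjusted p = 4.8e-05). The interaction of coating and medium was -0.06 (SE 0.20, limma adjusted p = 0.931).

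The drop lay in 1 transcript. NM_153743, which begins at the internal start and codes for 689 codons, carried 100% of the Dnmt3a sum in all 4 Std libraries. In 2i its share was 51% and 24.4% on gelatin and 0% and 60.2% on LN511. Its level was 2.25, 1.14, 0 and 2.66 FPKM in those 4 libraries. The upstream-start transcript NM_007872, with 908 codons, was at 0 in every Std library and in gelatin 2i replicate 1, and at 3.54, 5.58 and 1.76 FPKM in the other libraries in 2i. A further upstream-start transcript, NM_001271753, was above 0 only in gelatin 2i replicate 1, at 2.16 FPKM. Each library in 2i was therefore listed with at least 1 transcript from the upstream start above 0, and no library in Std was. The 100% in Std rests on these zeros, which may be failed estimates and do not show absence. The upstream-start levels in 2i, 1.76 to 5.58 FPKM, were small beside the Std sums of 75.1 to 87.2 FPKM. Whether such a level would be listed above 0 beside such sums was not tested. A gain of the upstream start in 2i is therefore not shown.

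Of 13 member transcripts tested, 5 were called in each medium comparison, against 10.9% of 11429 transcripts on gelatin and 13.2% on LN511. NM_153743 fell on gelatin (log2 -4.86, SE 0.56, limma adjusted p = 0.00428) and on LN511 (log2 -5.49, SE 0.56, limma adjusted p = 0.00209). NM_007872 did not pass in either medium comparison, at 1.09 on gelatin (limma adjusted p = 0.425) and 2.09 on LN511 (limma adjusted p = 0.12). The mean share of NM_153743 was 100% ± 0 in Std and 33.9% ± 27.2 in 2i (SD over 4 and 4 libraries), a difference of -66.1 percentage points. The exact two-sided permutation test gave p = 0.0286, the smallest that 4 libraries against 4 allow. It is unadjusted, for 1 of 6 genes tested in this way. NM_153743 was tested because its mean FPKM over the same 8 libraries was the highest, and the Std libraries set that mean. The choice favoured a lower share in 2i, so this p-value is not independent support. Leaving out libraries with a single-replicate 0 left LN511 2i replicate 2 alone in 2i and moved the difference to -39.9 points. In 2i these values rest on an implied 16 to 129 fragments for each transcript above 0, by the depth estimate above with its limits. The models differ at both ends (the plot of exons shows a longer last exon for the upstream-start transcripts), and the files do not show how common fragments were divided between them.

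**Figure D2:**
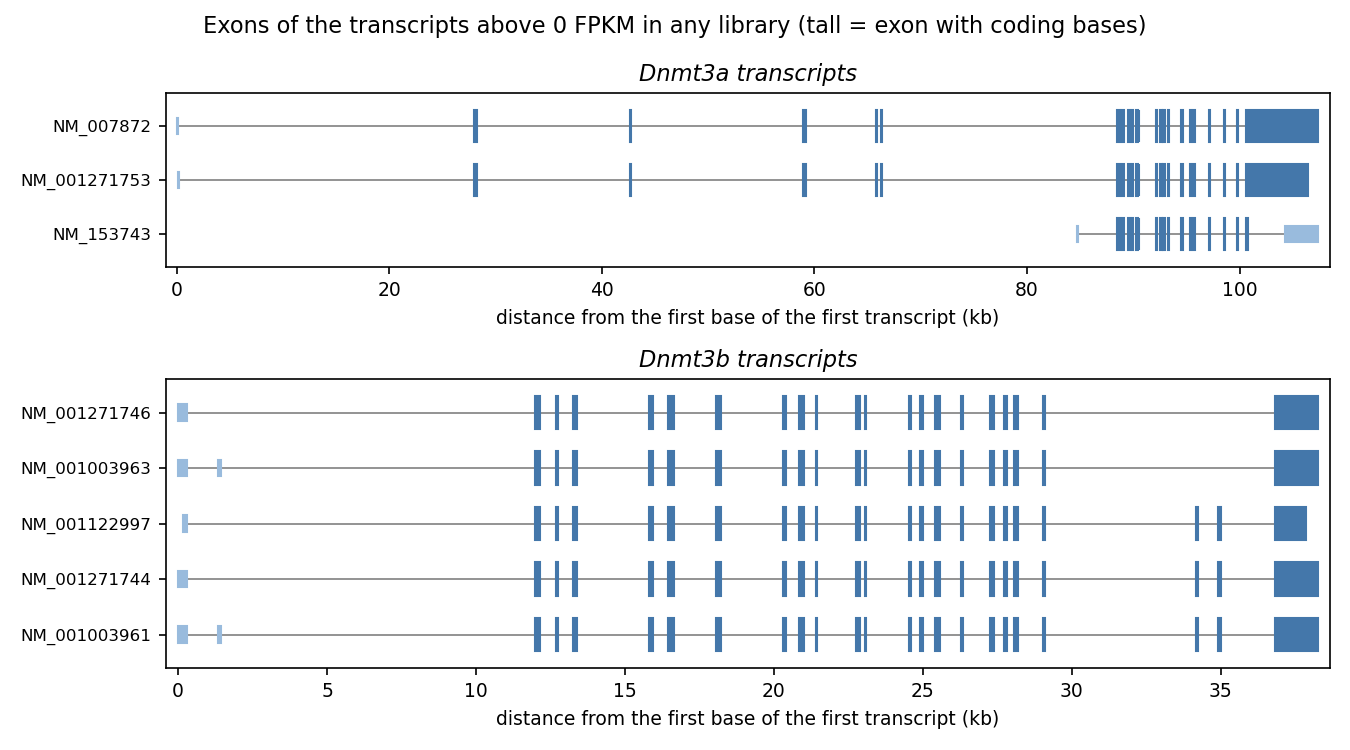
Exons of the Dnmt3a and Dnmt3b transcripts that were above 0 in any library, as boxes against distance in kb from the first base of the first transcript; tall boxes are exons with coding bases. NM_153743 of Dnmt3a begins 84.7 kb inside the gene, and NM_001271746 and NM_001003963 of Dnmt3b lack a pair of exons near the end that the other 3 have.

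Dnmt3b, the other de novo enzyme (chromosome 2, plus strand, 153649617 to 153687316 for its leading transcript), was at 122 and 259.5 FPKM in gelatin Std and at 211 and 121 FPKM in LN511 Std. In gelatin 2i it was at 14.6 and 25.6 FPKM and in LN511 2i at 48.5 and 46.5 FPKM. The groups in Std and 2i did not overlap, although replicates in Std lay far apart. On gelatin it fell from 191 ± 97.1 to 20.1 ± 7.80 FPKM, a log2 difference of -3.14 (SE 0.43, limma adjusted p = 0.00537). On LN511 it fell from 166 ± 63.7 to 47.5 ± 1.43 FPKM, a log2 difference of -1.73 (SE 0.43, limma adjusted p = 0.0357). That second call was lost without any 1 of the 4 LN511 libraries (limma adjusted p = 0.0628 to 0.17), with no filter on low values (0.0586) and with genes of doubtful zeros kept (0.053). The transcript in the lead, NM_001122997, kept replicates closer: it fell by 3.05 on gelatin (SE 0.24, limma adjusted p = 0.00104) and by 2.05 on LN511 (SE 0.24, limma adjusted p = 0.00359).

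Dnmt3b transcripts differ by an exon pair of 70 and 119 coding bases (chromosome 2, 153683608 to 153683677 and 153684359 to 153684477), together 63 codons in frame. They lie in the part that codes for the catalytic domain, and Dnmt3b forms without them are known as catalytically inactive. The GENCODE transcripts paired with NM_001122997 and NM_001271746 are shown across this place, the alternative exons in capitals between the exons on either side. They are printed because the libraries differed in the share listed for each form.
Dnmt3b with both exons: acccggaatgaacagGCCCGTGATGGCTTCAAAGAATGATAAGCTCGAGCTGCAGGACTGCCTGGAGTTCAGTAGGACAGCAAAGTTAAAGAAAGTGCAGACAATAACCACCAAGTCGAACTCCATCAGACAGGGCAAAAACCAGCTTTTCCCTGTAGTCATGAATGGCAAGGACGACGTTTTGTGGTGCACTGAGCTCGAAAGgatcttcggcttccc
Dnmt3b without them: acccggaatgaacaggatcttcggcttccc

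The share of the Dnmt3b sum with both exons was 66.4% and 100% in gelatin Std and 84.7% and 73.3% in LN511 Std. In 2i it was 67.7% and 46.6% on gelatin and 55.2% and 51.6% on LN511. Means were 83.2% ± 23.8 and 79.0% ± 8.1 in Std and 57.2% ± 14.9 and 53.4% ± 2.5 in 2i (SD, n = 2 each), and gelatin 2i replicate 1 lay above gelatin Std replicate 1. Expressed as levels, forms without the exons were at 41.1, 0, 32.3 and 32.2 FPKM in Std and at 4.70, 13.7, 21.8 and 22.5 FPKM in 2i. The share of the single leading transcript was 61.6% ± 12.3 in Std and 55.3% ± 9.0 in 2i (4 libraries each, exact permutation p = 0.486). NM_001271744 appeared only in gelatin Std replicate 2, at 68.0 FPKM, and NM_001003961 only there, at 76.0 FPKM, and in LN511 Std replicate 1, at 47.5 FPKM. Those are the Std libraries with the higher Dnmt3b sums.

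Dnmt3l, the partner without catalytic activity (chromosome 10, plus strand, 78049842 to 78063622), had the highest level of the 9 genes in both Std groups. Gelatin Std held 491 and 547 FPKM, LN511 Std 533 and 538.5, gelatin 2i 152 and 129, and LN511 2i 227 and 236 FPKM. No library in 2i reached a library in Std, and both LN511 libraries in 2i stood above both gelatin libraries in 2i. On gelatin it fell from 519 ± 39.8 to 141 ± 16.4 FPKM, a log2 difference of -1.88 (SE 0.10, limma adjusted p = 0.000129). On LN511 it fell from 536 ± 4.09 to 232 ± 6.87 FPKM, a log2 difference of -1.21 (SE 0.10, limma adjusted p = 0.000551). The interaction, 0.67 (SE 0.14), had an unadjusted p of 0.00182 and did not pass after adjustment in limma (adjusted p = 0.137).

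Of 6 Dnmt3l RefSeq transcripts, 2 were above 0, in all 8 libraries, and both code for 421 codons. NM_001284197 carried 57.8% and 59.4% of the gelatin Std sums, 69.5% and 65.0% of the LN511 Std sums, 49.5% and 45.7% of the gelatin 2i sums, and 63.2% and 65.4% of the LN511 2i sums. It fell by 2.17 on gelatin and by 1.27 on LN511, and the other transcript, NM_019448, fell by 1.53 and 1.08 (limma adjusted p = 0.000387, 0.00221, 0.000478 and 0.00148). Its lower share in gelatin 2i was a group of 2 libraries, for which an exact test cannot go below p = 0.333. Between media the share was 62.9% ± 5.3 in Std and 56.0% ± 9.8 in 2i (exact permutation p = 0.286, 4 libraries each).

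Among the copying genes, Dnmt1, the maintenance methyltransferase (chromosome 9, minus strand, 20907209 to 20952979), was at 83.7 and 81.3 FPKM in gelatin Std and at 84.5 and 80.3 FPKM in gelatin 2i. It was at 76.3 and 78.1 FPKM in LN511 Std and at 80.0 and 49.5 FPKM in LN511 2i. Levels overlapped between media on both coatings, with LN511 2i replicate 2 apart from the other 7 libraries. On gelatin the means were 82.5 ± 1.65 in Std and 82.4 ± 2.98 FPKM in 2i, a log2 difference of -0.00 (SE 0.20, limma adjusted p = 1). On LN511 they were 77.2 ± 1.24 and 64.8 ± 21.6 FPKM, a log2 difference of -0.29 (SE 0.20, limma adjusted p = 0.371). Without LN511 2i replicate 1 that difference was -0.63 (limma adjusted p = 0.0142) and without replicate 2 it was 0.05 (limma adjusted p = 0.754), so a single library decides it.

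NM_001199431 and NM_010066 of Dnmt1, paired with the same GENCODE transcript of 1620 codons, were above 0 in every library. NM_001199432, which begins 6.91 kb upstream and codes for 1501 codons, was at 0 in both gelatin Std libraries and at 19.9 and 13.7 FPKM in gelatin 2i. On LN511 it was at 0 in replicate 1 and at 20.7 FPKM in replicate 2 in Std, and at 0 and 16.7 FPKM in 2i. That transcript was therefore at 0 in 4 libraries and took 17.1% to 33.7% of the sum in the other 4. Its single-replicate zeros on LN511, and its zeros in all of gelatin Std, kept it out of the test. The share of NM_001199431 was 49.0% ± 10.7 in Std and 49.5% ± 10.3 in 2i (4 libraries each, exact permutation p = 0.971).

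Uhrf1, which brings Dnmt1 to newly replicated DNA (chromosome 17, plus strand, 56303321 to 56323486), was at 133 and 134 FPKM in gelatin Std and at 106 and 86.2 FPKM in LN511 Std. In 2i it was at 248 and 262 FPKM on gelatin and at 209 and 201 FPKM on LN511. All 4 libraries in 2i stood above all 4 in Std. On gelatin it rose from 134 ± 0.10 to 255 ± 10.1 FPKM, a log2 difference of 0.93 (SE 0.11, limma adjusted p = 0.00289). On LN511 it rose from 96.3 ± 14.2 to 205 ± 5.80 FPKM, a log2 difference of 1.09 (SE 0.11, limma adjusted p = 0.0012). The interaction was 0.16 (SE 0.15, limma adjusted p = 0.712).

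Transcripts from both Uhrf1 starts printed above were listed above 0, but how fragments common to them were divided is not known. Transcripts from the upstream start took 73.6% and 79.2% of the gelatin Std sums, 77.7% and 69.0% of the gelatin 2i sums, 75% and 68.5% of the LN511 2i sums, and 44.2% and 100% of the LN511 Std sums. The 100% goes with NM_001111078, a downstream-start transcript at 0 in LN511 Std replicate 2 and at 45.0 FPKM in replicate 1. The other downstream-start transcript, NM_001111080, was above 0 only in LN511 Std replicate 1, at 14.3 FPKM. NM_010931, the leading transcript, was at 81.1, 86.3, 142 and 134 FPKM on gelatin (Std, then 2i) and at 35.3, 53.9, 113 and 105 FPKM on LN511. It rose on LN511 (log2 1.30, SE 0.18, limma adjusted p = 0.00722) and did not pass on gelatin (log2 0.72, SE 0.18, limma adjusted p = 0.0562). Its share was 55.3% ± 14.8 in Std and 53.8% ± 2.6 in 2i (4 libraries each, exact permutation p = 0.943). Forms with 774 in place of 782 codons made up 12.8% to 37.5% of the sum.

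Uhrf2, a paralog of Uhrf1 (chromosome 19, plus strand, 30030513 to 30093722), was low. Gelatin Std held 14.8 and 13.7 FPKM, gelatin 2i 5.66 and 10.0, LN511 Std 11.5 and 9.37, and LN511 2i 10.9 and 5.51 FPKM. The gelatin groups did not overlap and the LN511 groups did. The log2 differences were -0.83 on gelatin (SE 0.36, limma adjusted p = 0.175) and -0.37 on LN511 (SE 0.36, limma adjusted p = 0.525), neither past the threshold. In FPKM, which is scaled to length, Uhrf1 exceeded Uhrf2 by 9.0 to 9.78 times in Std and by 19.1 to 43.9 times in 2i.

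Zfp57, the zinc finger protein of imprinted regions (chromosome 17, plus strand, 37002525 to 37010632 for its leading transcript), was at 97.8 and 87.5 FPKM in gelatin Std and at 97.6 and 96.6 FPKM in LN511 Std. In 2i it was at 338 and 151 FPKM on gelatin and at 196 and 160.0 FPKM on LN511. All libraries in 2i stood above all in Std, with gelatin 2i replicate 1 far above the rest. On gelatin the mean rose from 92.6 ± 7.29 to 244 ± 132 FPKM, a log2 difference of 1.28 (SE 0.33, limma adjusted p = 0.0467). On LN511 the means were 97.1 ± 0.72 and 178 ± 25.7 FPKM, a log2 difference of 0.86 (SE 0.33) that did not pass in limma (adjusted p = 0.127). The interaction was -0.42 (SE 0.47, limma adjusted p = 0.77), so a difference between coatings is not shown. The gelatin call was lost in 12 alternatives (limma adjusted p = 0.0527 to 0.178), and without gelatin 2i replicate 1 the difference was 0.70 (limma adjusted p = 0.0566). Conversely, the LN511 difference passed without either gelatin 2i library (limma adjusted p = 0.0117 and 0.012) and with only the LN511 groups in the fit (0.0374).

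Of the Zfp57 transcripts, the leading NM_001013745 rose on gelatin (log2 1.43, SE 0.26, limma adjusted p = 0.0194) and missed the threshold on LN511 (log2 0.86, SE 0.26, limma adjusted p = 0.0774). The RefSeq non-coding transcript NR_033137 had 32.9 and 35.3 FPKM for gelatin Std, 128 and 31.3 for gelatin 2i, 24.3 and 34.6 for LN511 Std, and 78.8 and 31.7 FPKM for LN511 2i. It was high in replicate 1 of both groups in 2i and within the range of the Std libraries in replicate 2 of both. The share of NM_001013745 was 66.3% ± 6.5 in Std and 70.4% ± 10.8 in 2i (4 libraries each, exact permutation p = 0.514).

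**Figure D3:**
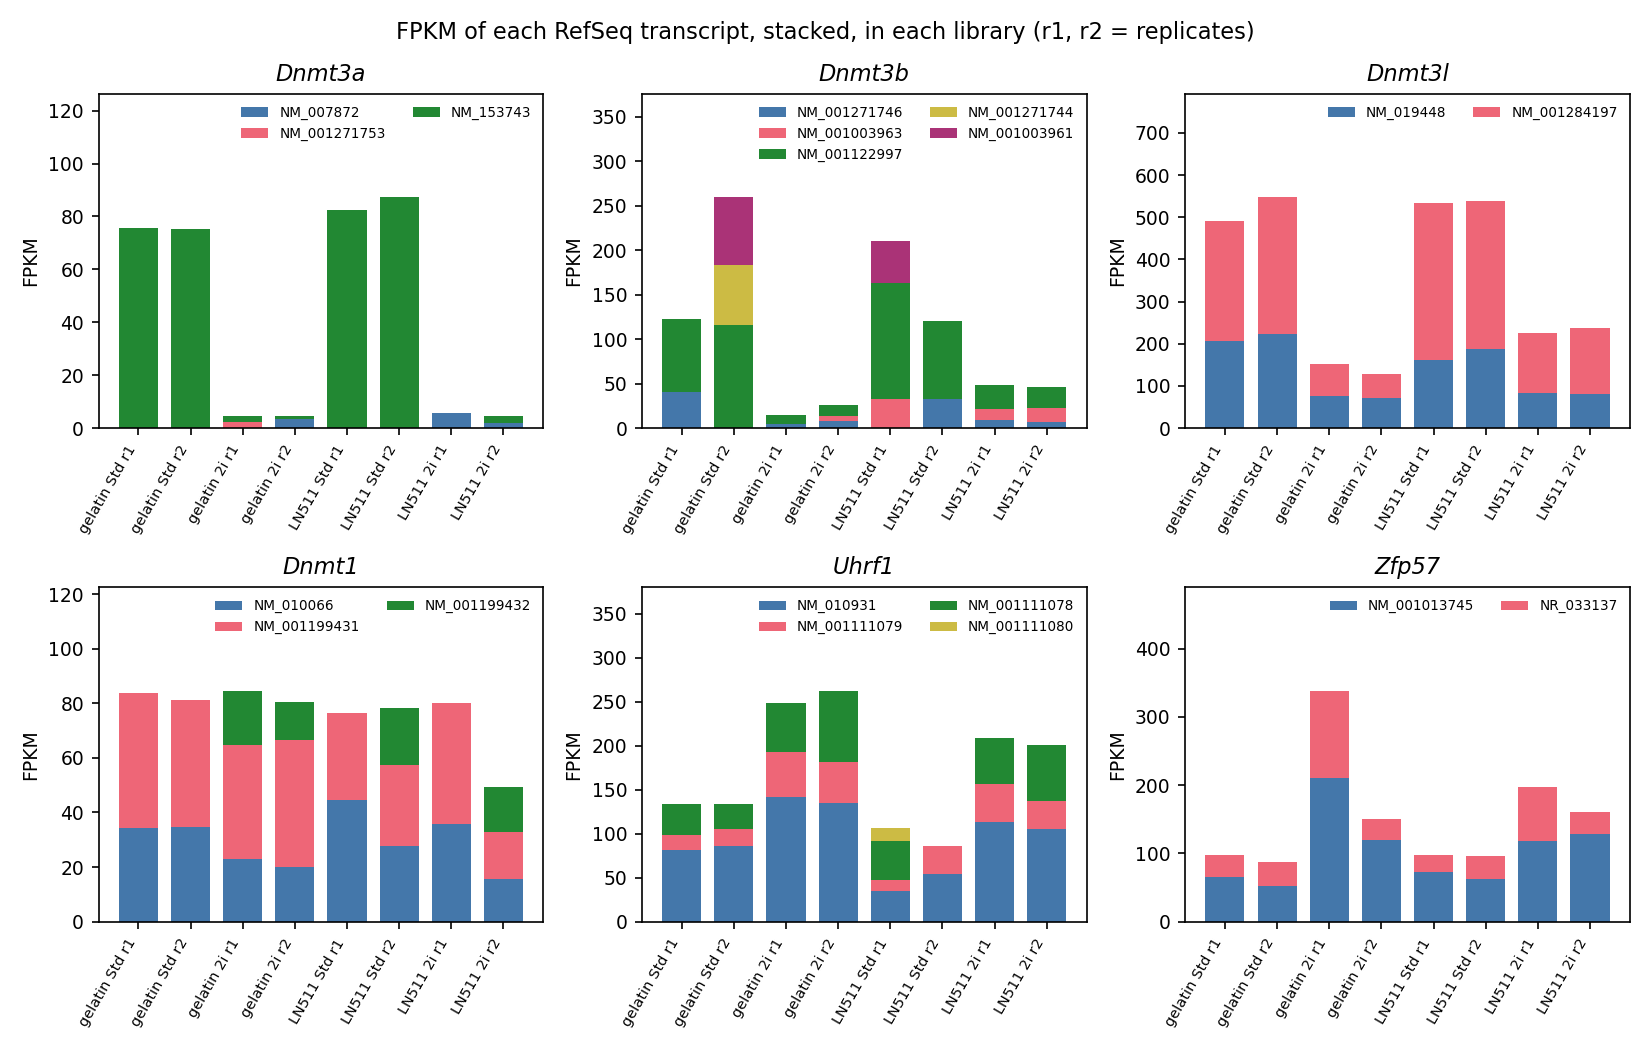
Stacked FPKM (linear axis from 0) of each RefSeq transcript above 0 in any library, for the 6 genes with more than 1 such transcript, in each of the 8 libraries (r1 and r2 are replicates). The Dnmt3a bars in Std hold NM_153743 alone, the 2 Dnmt3l transcripts are present in every library, and blocks of Dnmt3b, Dnmt1 and Uhrf1 come and go between replicates.

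Of the removal genes, Tet3, which oxidises methylcytosine (chromosome 6, minus strand, 83362373 to 83441675), was low everywhere. Gelatin Std held 1.78 and 1.68 FPKM, gelatin 2i 1.20 and 1.02, LN511 Std 0.75 and 1.95, and LN511 2i 0.87 and 0.90 FPKM. The log2 differences were -0.37 on gelatin (SE 0.32, limma adjusted p = 0.488) and -0.27 on LN511 (SE 0.32, limma adjusted p = 0.608). Neither passed, and the LN511 groups overlapped. Its relatives Tet1 and Tet2 were not tested, because in gelatin 2i 1 replicate was at 0 beside one of at least 5 FPKM. Such zeros may be failed estimates, so they do not show that Tet1 was absent. Tet1 was listed at 0 in 6 libraries and at 9.46 and 3.09 FPKM in gelatin 2i replicate 1 and LN511 2i replicate 2. For Tet2, gelatin Std held 3.37 and 6.68 FPKM, gelatin 2i 8.19 and 0, LN511 Std 2.04 and 9.28, and LN511 2i 3.53 and 4.11 FPKM.

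Tdg, the glycosylase that excises oxidised methylcytosine (chromosome 10, plus strand, 82629859 to 82650799), was at 25.1 and 20.4 FPKM in gelatin Std and at 18.1 and 15.8 FPKM in LN511 Std. In 2i it was at 6.00 and 0 FPKM on gelatin and at 4.86 and 8.02 FPKM on LN511. All libraries in 2i were listed below all in Std, 1 of them at a 0 that may be a failed estimate. The replicate listed at 0 in gelatin 2i kept the gene out of the test. With such genes kept, the log2 differences were -3.16 on gelatin (SE 0.85, limma adjusted p = 0.0642) and -1.30 on LN511 (SE 0.85, limma adjusted p = 0.368), neither past the threshold. NM_172552 carried the whole sum. A pseudogene that is a near copy, Tdg-ps2, was listed at 26.8 to 49.0 FPKM, so how fragments were split between them makes both levels uncertain.

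The flag for a transcript at 0 in 1 replicate and above 0 in the other was raised 15 times, on 11 of the 34 transcripts. Dnmt3b held 7 of these cases, Dnmt3a 3, Dnmt1 and Uhrf1 2 each and Tdg 1, while Dnmt3l, Uhrf2, Zfp57 and Tet3 held none. The Dnmt3b cases were NM_001271746 in gelatin Std replicate 2 and LN511 Std replicate 1 (41.1 and 32.2 FPKM in the other replicate), NM_001003963 in gelatin 2i replicate 1 and LN511 Std replicate 2 (5.62 and 32.3), NM_001271744 in gelatin Std replicate 1 (68.0) and NM_001003961 in gelatin Std replicate 1 and LN511 Std replicate 2 (76.0 and 47.5). In Dnmt3a they were NM_007872 and NM_001271753 in gelatin 2i replicates 1 and 2 (3.54 and 2.16) and NM_153743 in LN511 2i replicate 1 (2.66). Where the higher replicate of a group held 5 FPKM or more, the other was at 0 in 12 of 65 cases (18.5%) for these transcripts. The same held in 8.39% of 31195 cases over all RefSeq transcripts. From 1 FPKM upward, which takes in all 15 flagged cases, the shares were 15 of 72 (20.8%) and 18.2% of 48972, close to each other. Of the 34 transcripts, 11 were above 0 in all 8 libraries and 12 were at 0 in all. Among the gene sums, that of Tdg alone reached 0. Other sums could still carry these zeros. In gelatin Std, the Dnmt3b sum was 259.5 FPKM in replicate 2 and 122 in replicate 1, where NM_001271744 and NM_001003961 were at 0.

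Across coatings, none of the 8 tested members passed. In Std, limma called 0 members against 2.1% of all genes, and 1 member (Uhrf1) against 15.8% of genes had an unadjusted p under 0.05. In 2i it called 0 members against 0.0195% of all genes, with unadjusted p under 0.05 for 3 members (Dnmt3b, Dnmt3l and Uhrf1) and 11.9% of genes. In 2i on LN511, Dnmt3l was higher than on gelatin by a log2 difference of 0.72 (SE 0.10, limma adjusted p = 0.0657) and Dnmt3b by 1.25 (SE 0.43, limma adjusted p = 0.332), with no overlap of libraries for either. Dnmt3a, the third gene of this role, differed by 0.11 in 2i (SE 0.14, limma adjusted p = 0.816) with overlap. Uhrf1 was lower on LN511 in both media without overlap, by -0.48 in Std (SE 0.11, limma adjusted p = 0.0869) and -0.32 in 2i (SE 0.11, limma adjusted p = 0.328). Libraries also did not overlap between coatings for Dnmt1 in both media, for Dnmt3a and Uhrf2 in Std and for Tet3 in 2i. How often this happens over all genes was not counted, so no weight rests on it. For the interaction limma called 0 members against 0.185% of all genes, and 1 member (Dnmt3l) against 12.2% of genes had an unadjusted p under 0.05.

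**Figure D4:**
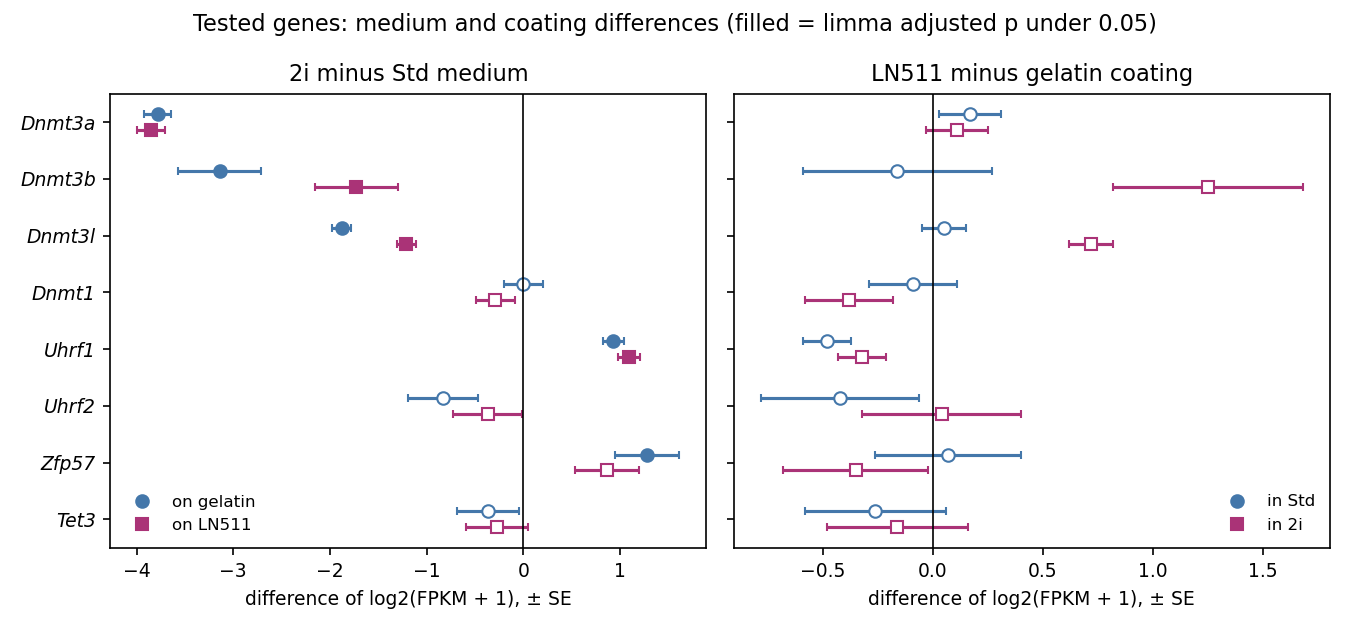
Differences of log2(FPKM + 1) with SE for the 8 tested genes, 2i minus Std on each coating (left) and LN511 minus gelatin in each medium (right, narrower axis); filled symbols passed limma at an adjusted p under 0.05. The left panel has 5 filled symbols for gelatin and 4 for LN511, from -3.85 to 1.28, and the right panel has none.

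By level, in FPKM per length, the order of the 9 genes changed with the medium, although Dnmt3l led in every group but gelatin 2i and Tet3 was last in all 4. In gelatin Std it ran Dnmt3l (519 FPKM), Dnmt3b (191), Uhrf1 (134), Zfp57 (92.6), Dnmt1 (82.5), Dnmt3a (75.4), Tdg (22.8), Uhrf2 (14.2) and Tet3 (1.73), and among neighbours only Dnmt3b and Uhrf1 overlapped in their replicates. In gelatin 2i it ran Uhrf1 (255), Zfp57 (244), Dnmt3l (141), Dnmt1 (82.4), Dnmt3b (20.1), Uhrf2 (7.84), Dnmt3a (4.54), Tdg (3.0) and Tet3 (1.11), with overlap from gene to gene among the first 3 and among the last 3. In LN511 Std, Dnmt3l and Dnmt3b again led, and Zfp57, Uhrf1 and Dnmt3a were neighbours that overlapped. In LN511 2i, Dnmt3l (232) stayed above Uhrf1 (205) without overlap, and Uhrf2, Tdg and Dnmt3a were neighbours that overlapped. The ratio of Dnmt3l to Uhrf1 was 3.68 and 4.10 for gelatin Std, 5.01 and 6.25 for LN511 Std, 0.61 and 0.49 for gelatin 2i, and 1.08 and 1.18 for LN511 2i. The ratio of Dnmt3a to Dnmt1 was 0.90 to 1.12 in Std and 0.05 to 0.09 in 2i, and that of Uhrf1 to Dnmt1 was 1.1 to 1.64 in Std and 2.61 to 4.06 in 2i.

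Genes that work beside these members were counted from lists, to be read against the 15.4% (gelatin) and 18.5% (LN511) of all genes called between media. Of 7 tested partners of maintenance, 1 rose and 3 fell on gelatin and 2 rose and 3 fell on LN511 (median log2 difference -0.47 and -0.35). Lig1, the replication ligase, rose from 103 ± 1.48 to 153 ± 0.45 FPKM on gelatin (log2 0.57, limma adjusted p = 0.00468) and by a log2 difference of 1.00 on LN511 (limma adjusted p = 0.000471). Pclaf, the PCNA-associated factor, fell by 0.96 and 1.82 (limma adjusted p = 0.00603 and 0.000471), and Hells, a chromatin remodeller, fell by 0.57 and 0.76 (0.0206 and 0.0066). The remaining calls were Cdca7, lower on both coatings, and Pcna, higher on LN511. Members and partners of the same copying step thus moved in both directions.

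Of 15 tested S phase genes, 2 rose and 1 fell on gelatin and 3 rose and 1 fell on LN511 (median 0.11 and 0.40), or 3 and 4 calls of 15 beside 15.4% and 18.5% over all genes. Cdc45, a helicase factor, rose by 0.74 and 0.83 (limma adjusted p = 0.0129 and 0.00726), and Ccne1, a cyclin, fell (log2 -0.80 and -1.31, limma adjusted p = 0.0414 and 0.00713). These values stand beside the rise of Uhrf1, a gene known to follow the cell cycle, and their part in it was not tested. Of 9 genes listed as regulators of the de novo enzymes, only 5 were tested, and of these 2 rose and 2 fell on both coatings. Prdm14, a factor known to repress de novo methyltransferase genes in these cells, rose from 0.60 ± 0.86 to 14.2 ± 4.16 FPKM on gelatin (log2 3.33, SE 0.44, limma adjusted p = 0.00458) and from 0.58 ± 0.40 to 15.5 ± 1.12 FPKM on LN511 (log2 3.40, SE 0.44, limma adjusted p = 0.00336). The growth regulator Myc fell by 2.15 and 2.60 (limma adjusted p = 0.00731 and 0.00304). Kdm1a rose and Prmt5 fell on both coatings. The part of these regulators in the fall of the de novo genes was not tested.

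Of 9 tested enzymes around the methyl donor, 2 rose and 1 fell on gelatin and 2 rose and 2 fell on LN511 (median -0.09 on each), beside 15.4% and 18.5% of all genes. Tdh, threonine dehydrogenase, rose from 58.6 ± 0.29 to 335 ± 24.4 FPKM on gelatin (log2 2.49, SE 0.08, limma adjusted p = 2.79e-05) and from 70.9 ± 0.53 to 309 ± 13.4 FPKM on LN511 (log2 2.11, SE 0.08, limma adjusted p = 4.8e-05). The lowest called values were Gnmt on gelatin (log2 -1.65, limma adjusted p = 0.0303) and Ahcy on LN511 (log2 -0.86, limma adjusted p = 0.0168). Between coatings in Std, Mat2a was higher on LN511 (log2 0.74, limma adjusted p = 0.00726). Of 10 tested genes of base excision and active removal, 1 rose and 1 fell on each coating, or 2 calls of 10 beside 15.4% and 18.5% over all genes. Gadd45a fell by 0.86 and 2.24 (limma adjusted p = 0.0228 and 0.000546), Gadd45b rose on gelatin (log2 1.17, limma adjusted p = 0.0309) and the uracil glycosylase Ung rose on LN511 (log2 1.17, limma adjusted p = 0.00324). Between coatings in Std, Gadd45a was higher on LN511 (log2 1.09, limma adjusted p = 0.0362). Among 6 tested readers of methylated DNA, 2 were called between media, both lower in 2i than in Std on the LN511 coating: Zbtb33 (log2 -0.97, limma adjusted p = 0.0422) and Mbd3 (log2 -0.59, limma adjusted p = 0.0184). Between coatings in Std, Mbd3 was higher on LN511 than on gelatin (log2 0.73, limma adjusted p = 0.0365). Of 5 tested partners of Zfp57 around Trim28, 1 was called, the histone methyltransferase Ehmt1, lower on gelatin (log2 -0.95, limma adjusted p = 0.0366). Trim28 itself was at 562 ± 2.18 and 405 ± 85.8 FPKM on gelatin and at 581 ± 50.1 and 754 ± 23.4 FPKM on LN511 (Std, then 2i), with limma adjusted p = 0.0601 and 0.109.

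The genes most like each called member, among 6181 tested genes that averaged at least 5 FPKM, were found by the Pearson correlation of log2(FPKM + 1) over the 8 libraries, given as a description. For Dnmt3a they were Arl4c (0.9997), Dusp6 (0.9972) and Mycn (0.9971). Group means of Dusp6, known as an ERK target that codes for a phosphatase, were 47.4, 1.48, 71.5 and 2.15 FPKM in gelatin Std, gelatin 2i, LN511 Std and LN511 2i. Dnmt3b was most like Selenoi (0.9787), Pgrmc1 (0.9689) and Thumpd1 (0.9653), and Dnmt3l most like Serpine2 (0.9862), Pgrmc1 (0.9843) and Atxn7l3b (0.9824). Pgrmc1 was thus near both, at means of 60.2, 30.6, 66.5 and 41.1 FPKM in the same order of groups. Uhrf1 was most like Hexa (0.9927), Scd1 (0.9915) and Lima1 (0.989). For Zfp57 they were Zbtb39 (0.9592), Fancg (0.9485) and Rrm2 (0.9437). All points share the same 4 pairs of libraries, and a gene that follows the medium correlates with any other that does.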

How the data were processed

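RNA-seq of 8 libraries was analysed, 2 in each of 4 groups named by the labels. The authors deposited FPKM per gene and per transcript. The submitters' processing notes name mm10, Cufflinks 2.1.1 and TopHat2 2.1.1; for settings, annotation and strandedness, the sources used here give none. Gene values were sums over RefSeq transcripts, because the deposited gene table lists 47.3% of values with sums of 1 FPKM or more at 0 and has rows for 3 members only. RefSeq transcripts were matched to symbols (31786 of 32688), and 21844 assembled transcripts were left out.

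Genes with 1 FPKM in 2 libraries were kept. Zeros may be failed estimates: a gene was not tested if 1 replicate was at 0 beside one of at least 5 FPKM, or if all of a group was at 0 and another group averaged at least 5 FPKM (10278 tested). limma 3.58.1 in R 4.3.3 (trend, log2(FPKM + 1), pseudocount 1, 4 residual degrees of freedom, Benjamini-Hochberg) gave the tests and was checked on simulated data; shares used exact permutation tests (scipy 1.17.1). Starts and promoters are from the RefSeq tables for GRCm38.p6, the assembly of mm10. Exons are from GENCODE, by its own RefSeq pairing, in which some RefSeq transcripts share a model. Depth was read from steps between low FPKM values, within a fixed range. The leading transcript of a gene was the one with the highest mean FPKM over all 8 libraries.

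The members, gene lists and tests were chosen with earlier results of these data known. Named genes were the members, the 3 genes most like each called member, the Tet genes, and the highest and lowest called genes of each list; other list genes, Trim28, Tdg-ps2 and the grouping of transcripts by start or exon pair were chosen after their values were seen. Alternatives were another pseudocount, no filter, zeros kept, the gene table, the largest transcript, quantile normalization, a replicate block, only the compared groups and leaving out each library.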

Additional observations from a re-analysis of the deposited data

How the results depend on the processing

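With 2 libraries a group and 4 residual degrees of freedom, calls near the threshold were not stable. The calls of Dnmt3a, Dnmt3l and Uhrf1 in both medium comparisons and of Dnmt3b on gelatin held under every alternative on transcript values. Members called for 2i against Std ranged from 4 to 5 on gelatin and 3 to 5 on LN511 without single libraries, and 0 of 2 testable members were called in either with the deposited gene table.

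That table, which lists Dnmt3a at 0 in 5 of 8 libraries, turned its direction on gelatin (1.25), on LN511 (2.58) and in the interaction (1.32), and that of Tet3 on LN511 (0.14). With the largest transcript in place of the sum, the coating difference of Dnmt3b in Std was 0.15 and that of Dnmt3a in 2i -0.46. Quantile normalization turned the Dnmt3a interaction to 0.06. Over libraries without a single-replicate 0, the Dnmt3a share difference moved from -66.1 to -39.9 points, with 1 library in 2i. The cause of the other changes was not tested. Other reversals came from leaving out 1 library, all on differences that had not passed: Dnmt1 on gelatin (-0.04 to 0.03), on LN511 (-0.63 to 0.05) and in the interaction (-0.63 to 0.05); Uhrf2 on LN511 (-0.80 to 0.07) and between coatings in 2i (-0.40 to 0.48); Tet3 on LN511 (-0.65 to 0.11), between coatings in Std (-0.64 to 0.11) and in the interaction (-0.27 to 0.48); Dnmt3a between coatings in 2i (-0.03 to 0.25) and in the interaction (-0.20 to 0.08); Dnmt3b (-0.70 to 0.38), Dnmt3l (-0.03 to 0.12) and Zfp57 (-0.01 to 0.15) between coatings in Std; and Zfp57 between coatings in 2i (-0.93 to 0.23) and in the interaction (-1.0 to 0.16).

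Counts over all genes moved more. For 2i against Std, limma called 1583 genes on gelatin and 1905 on LN511, with 295 and 326 in the gene table, 998 and 962 with only the compared groups, and 648 to 1516 and 861 to 1625 without single libraries. The coating comparison in Std called 216 genes, with 135 in the gene table, 6 with only the compared groups and 9 to 199 without single libraries. In 2i it called 2, with 0 at pseudocount 0.1, 15 without a filter, 42 with zeros kept, 54 in the gene table, 0 with only the compared groups and 0 to 12 without single libraries. The interaction called 19 genes, with 31, 53 and 65 under no filter, zeros kept and the gene table, and 0 to 11 without single libraries.

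Correlations of replicate differences between groups were -0.022 to 0.012, so no pairing by replicate number was seen. Noise between 2 libraries can hide a pairing, so these values cannot tell whether replicates were paired. With the replicate number as a block, the coating count in Std was 80, in 2i 0 and for the interaction 1, and the Dnmt3b difference on LN511 stayed at -1.73 with limma adjusted p = 0.0524; no other member changed its call.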
